A study of Sus scrofa with 4 samples.

Results

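Collagen chains were the 27 rows of the deposited table whose gene symbol is COL, a number, A and a number, out of 14804 gene rows. They held 9 fibrillar chains, 5 network chains, 6 chains of the FACIT class (fibril-associated collagens with interrupted triple helices), 2 microfibrillar chains and 5 others. The RefSeq annotation of the pig build Sscrofa11.1 names 43 genes of this kind, and the other 16, with COL2A1 and COL10A1 of cartilage among them, were not analysed here. COL4A3BP, a lipid transfer protein whose symbol only looks alike, was left out by the rule.

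The cells were primary interstitial cells of the pig (Sus scrofa) aortic valve, the fibroblast-like cells that make and maintain the matrix of the leaflet. The control library came from 5 days of culture without donor, and the NO donor library from cells given 150 µM detaNONOate, a compound that releases nitric oxide (NO), for 5 days. The series has 2 further groups, withdrawal of the donor after 3 days and S-nitrosoglutathione at 200 µM, which were not analysed here. Each group was 1 droplet single-cell library aimed at about 2000 cells, and how many animals gave the cells was not stated in the labels. The values had no cell-by-cell detail: each library was given as 3 columns of counts summed over cells, of 6486628 to 8067661 counts per column. The sources used here do not say how the columns of a library arose, so they were treated as parts of 1 library and the treatment could not be tested. A normalized count below is a count divided by the authors' size factor, and intervals are exact 95% intervals that cover counting error only. A lower value can mean fewer cells that express a chain or less RNA per cell, which such sums cannot tell apart.

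A collagen is a trimer of chains wound into a triple helix, in which glycine recurs at a regular spacing. Fibrillar collagens assemble into the load-bearing fibrils of the valve, network collagens form sheets such as the basement membrane, and FACIT collagens sit on fibril surfaces. Type VI forms beaded microfibrils around cells, and the remaining chains are anchoring, transmembrane or multiplexin collagens, the last of which bind basement membranes.

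The glycine repeat can be read in the exons themselves. The sequences below are, for 6 chains on which the results turn, the first coding exon of exactly 54 bases that holds a glycine codon every 9 bases. Each is written 5′ to 3′ on the coding strand from the RefSeq annotation of Sscrofa11.1, with the 6 glycine codons in capitals. The chains are the type I pair, COL3A1 of type III, COL4A1 of the basement membrane and the multiplexins COL15A1 and COL18A1.
COL1A1, coding exon 8, chr12:26393098-26393151, minus strand: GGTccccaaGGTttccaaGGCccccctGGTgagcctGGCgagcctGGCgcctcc
COL1A2, coding exon 8, chr9:74184187-74184240, plus strand: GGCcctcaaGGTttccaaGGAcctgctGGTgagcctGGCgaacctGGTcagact
COL3A1, coding exon 6, chr15:93571887-93571940, plus strand: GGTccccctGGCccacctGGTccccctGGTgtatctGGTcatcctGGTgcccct
COL4A1, coding exon 7, chr11:76915618-76915671, minus strand: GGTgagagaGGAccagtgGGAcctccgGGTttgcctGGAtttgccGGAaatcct
COL15A1, coding exon 26, chr1:240806229-240806282, plus strand: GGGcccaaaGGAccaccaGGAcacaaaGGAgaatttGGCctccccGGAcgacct
COL18A1, coding exon 27, chr13:207972940-207972993, plus strand: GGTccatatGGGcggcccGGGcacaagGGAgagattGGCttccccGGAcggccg

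The type I exons share 42 of 54 bases and the multiplexin exons 39 of 54. Within both of these pairs the log2 ratios, described further on, lay well apart. So did those of COL12A1 and COL14A1, whose first exons of this kind share 27 of 54 bases. All these exons were picked for glycine codons at the same places, which fixes part of any identity. Pairs from different classes shared, for example, 25 bases (COL1A1 and COL4A1) or 32 (COL3A1 and COL15A1). A link between exon sequence and log2 ratio was not tested.

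The comparison of the NO donor library with the control asked which collagens differed in valve cells cultured with a source of NO. By a rule of size, an absolute log2 ratio of 1 or more, 20 of 27 chains were lower in the NO donor library, none was higher and 7 lay within the rule. Among all 13943 genes with an adjusted p in the authors' table, 20.2% were lower by the same rule and 14.5% higher. The median log2 ratio of the chains was −1.85, beside 0.00 over all those genes. Fibrillar chains had a median of −2.67, FACIT chains −2.03, microfibrillar chains −1.27 and the other chains −3.37, whereas network chains had −0.49. The value of −3.37 is that of COL17A1, with few counts, and the 2 of these 5 chains with a mean of 10 or more had a median of −2.58. At that mean the fibrillar median was −2.03, the FACIT median −2.06, the microfibrillar median −1.27 and the network median −0.40. The fibrillar and FACIT medians thus lay apart only with the chains of low count. For 21 chains all 3 NO donor columns lay below all 3 control columns, and for the other 6 the columns overlapped. Of all genes, 36.3% had NO donor columns wholly below the control columns and 36.7% wholly above.

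The scaling of the libraries moved these values together. Scaling by total counts instead added 0.60 to each log2 ratio, so that the median over all genes became 0.60. Then 16 chains were lower, against 11.9% of all genes, and none was higher, against 33.2%. The median of the chains became −1.25, and relative to the median gene it was the same distance away. At a threshold of 0.5 with the authors' scaling, 23 chains were lower and none higher, against 32.0% and 29.5% of all genes. In the authors' deposited table, 17 chains were lower with a DESeq2 adjusted p below 0.05 and none was higher, against 26.4% and 24.7% of all genes. That p treats columns as replicates, and whether they are separate cultures is not stated, so it was not read as a test of the donor. There were 9 chains with a mean below 10 normalized counts, and a chain of that kind can enter the table through the library where it is higher. Among the 18 chains with a mean of 10 or more, 12 were lower by the rule and 6 lay within it. The share of all genes at that mean was not computed, so this count cannot be set against like genes.

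**Figure D1:**
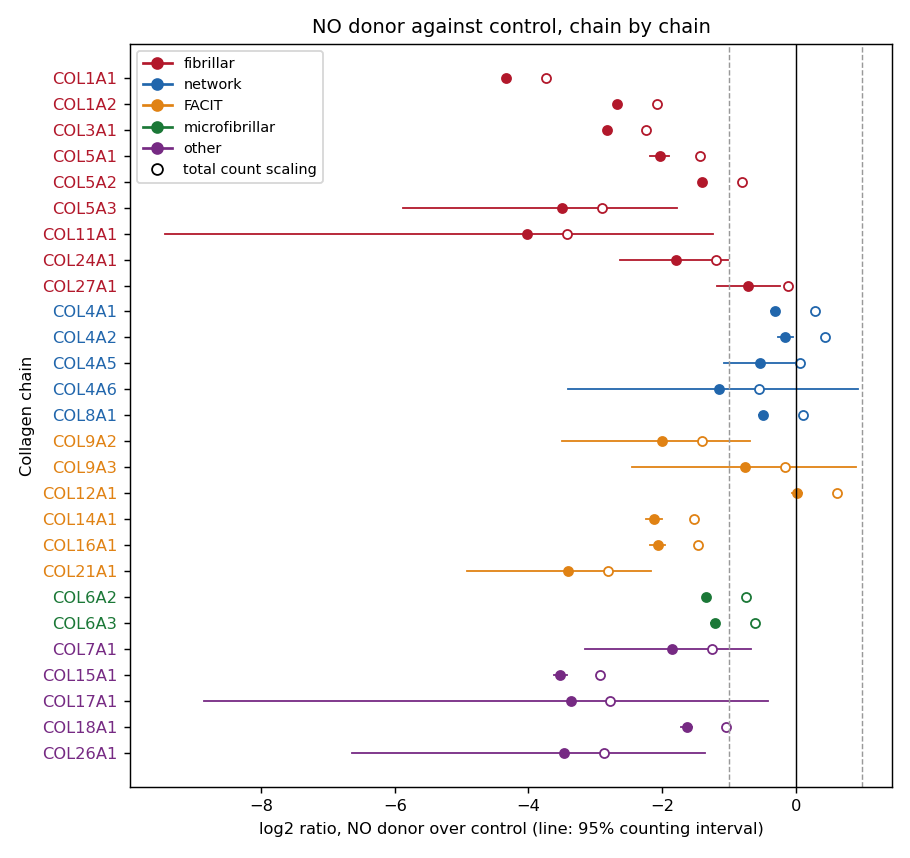
The log2 ratio of NO donor over control for each of the 27 chains, coloured by class, with filled points at the authors' size factors, lines for the 95% counting interval and open points for total count scaling. Dashed lines mark the rule of 1 log2 unit; 4 of 5 network chains and COL12A1 lie within it, COL1A1 lies at −4.33, and no chain lies above 1.

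Fibrillar chains were lower in 8 of 9 rows, and in 6 of the 7 with a mean of 10 or more. COL1A1 encodes alpha 1 of type I, the main fibril collagen of the leaflet. Its gene (chromosome 12, 26379087 to 26397180) had normalized counts of 36503, 35445 and 35924 in the control columns. Its NO donor columns held 1755, 1786 and 1820.5. The columns of the libraries did not overlap, and the level was 20.1-fold lower (19.6 to 20.6). COL1A2, the alpha 2 chain that joins COL1A1 in the same trimer (chromosome 9, 74174484 to 74210407), had 53642, 52816 and 53110.4 in the control columns. Its NO donor columns held 8111, 8425 and 8493, and the chain was 6.37-fold lower (6.29 to 6.45). The type I chains were thus both lower without overlap of columns, the alpha 1 chain by 1.66 log2 units more than the alpha 2 chain.

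COL3A1, the single chain of type III collagen, which co-assembles with type I fibrils (chromosome 15, 93556914 to 93595678), had 22188, 21558 and 21731 in the control columns. Its NO donor columns held 2996, 3148 and 3046, which was 7.12-fold lower (6.98 to 7.27). COL3A1 therefore lay near COL1A2, with log2 ratios that differed by 0.16. Type V collagen starts and limits fibril growth. COL5A1 (chromosome 1, 273934219 to 274083264) had 695, 654 and 621 in the control and 159.6, 165 and 155 with the NO donor, 4.10-fold lower (3.73 to 4.51). COL5A2 (chromosome 15, 93611856 to 93981131) had 5454, 5149 and 5299 in the control and 1995, 2039.6 and 1986 with the NO donor, 2.64-fold lower (2.56 to 2.72). The COL5A2 columns did not overlap, but its log2 ratio of −1.40 became −0.80 under total count scaling and then missed the rule. COL5A2 lies beside COL3A1, with 16177 bases between their annotated spans, yet COL3A1 was lower by 1.43 log2 units more.

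Of the remaining fibrillar chains, COL24A1 and COL27A1, both minor fibrillar collagens, had means of 12.1 and 27.0. COL24A1 had 47 control counts and 20 with the NO donor, a log2 ratio of −1.79 (−2.63 to −1.01). COL27A1 had 83 and 75 counts, a log2 ratio of −0.71 (−1.18 to −0.24), the only fibrillar chain within the rule. COL5A3, another type V chain, had 23 counts in the control and 3 with the NO donor, 11.3-fold lower with an interval of 3.42 to 58.9. COL11A1, of the cartilage-type fibrillar collagen XI, had 11 counts and 1, a ratio of 16.2 with an interval of 2.36 to 699. These low counts set no size for the difference beyond their intervals.

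**Figure D2:**
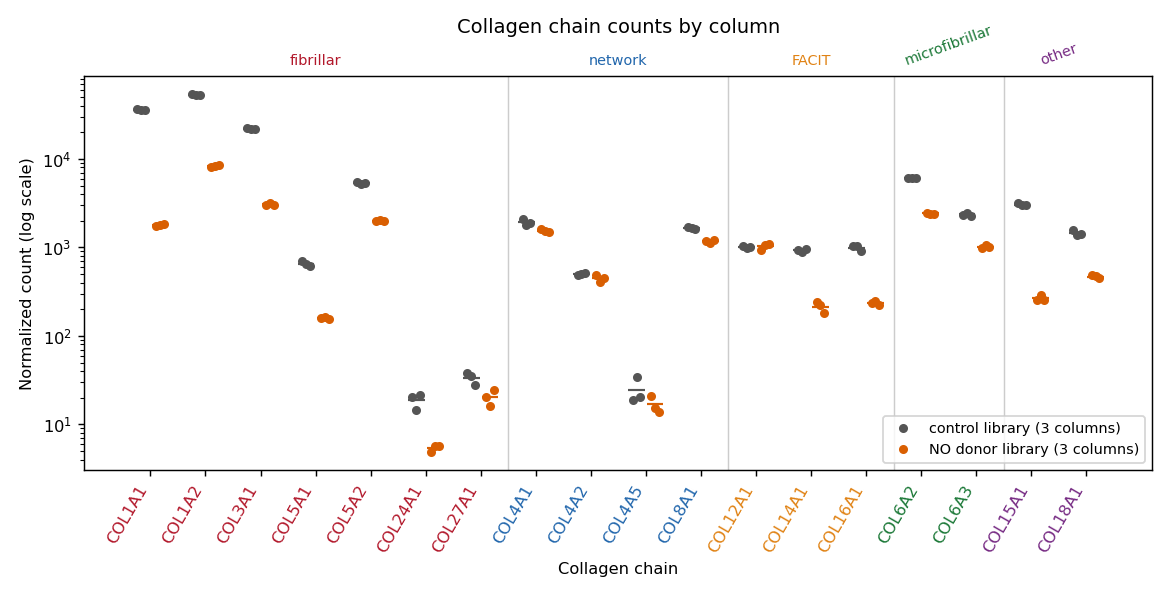
Normalized counts on a log axis for the 18 chains with a mean of 10 or more, with 3 points for the columns of each library and a bar for the library level. The COL1A1 points lie between 35445 and 36503 in the control and between 1755 and 1820.5 with the NO donor, whereas the COL12A1 points of the 2 libraries overlap.

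Of the 5 network chains, 4 lay within the rule and COL4A6, with few counts, was lower at −1.15. COL4A1 and COL4A2 form the common trimer of basement membrane type IV collagen. COL4A1 (chromosome 11, 76858332 to 76997409) had 2107, 1791 and 1869 in the control columns and 1622, 1533 and 1475 with the NO donor. Its columns did not overlap, and its log2 ratio was −0.31 (−0.37 to −0.25). COL4A2 (chromosome 11, 76996885 to 77161617) had 486, 501 and 512 in the control and 490.2, 407 and 452 with the NO donor. Those columns overlapped, and the log2 ratio was −0.15 (−0.26 to −0.05). The COL4A1 and COL4A2 genes lie head to head, and their annotated spans overlap by 525 bases at the 5′ ends. The sources used here do not say whether counting used the strand, so reads of the overlap cannot be assigned with certainty.

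COL8A1, a short-chain collagen of vessel and valve matrix (chromosome 13, 159216138 to 159374718), had 1689.6, 1646 and 1598 in the control and 1183, 1112 and 1211 with the NO donor. It was 1.40-fold lower (1.35 to 1.47), without overlap of columns and within the rule. COL4A5, another type IV chain (chromosome X, 88958837 to 89183306), had 18.8, 34.0 and 20.5 in the control and 21.2, 15.4 and 14.0 with the NO donor, and its columns overlapped. COL4A6, its usual partner, had 6 counts in the control and 4 with the NO donor, and the interval of its log2 ratio, −3.41 to 0.93, holds 0. Total count scaling, which moves every gene alike, turned the sign of 4 network chains: COL4A1 was at 0.29, COL4A2 at 0.44, COL8A1 at 0.11 and COL4A5 at 0.06, while COL4A6 was at −0.55. None of the 5 network chains then passed the rule, and all lay below the median gene at 0.60.

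Of the 6 FACIT chains, 4 were lower by the rule, and COL12A1 and COL9A3 lay within it. COL12A1, a large chain that binds type I fibrils (chromosome 1, 90744409 to 90875127), had 1043, 996 and 1023 in the control columns and 935, 1068.5 and 1096 with the NO donor. The columns overlapped, and its log2 ratio of 0.02 (−0.05 to 0.09) was the highest of the 27 chains; total count scaling gave 0.61. COL14A1, its close relative on fibril surfaces (chromosome 4, 18690197 to 18925111), had 924, 895 and 971 in the control and 239, 224 and 181 with the NO donor. COL14A1 was 4.34-fold lower (4.01 to 4.72), a difference from COL12A1 of 2.14 log2 units. COL16A1 (chromosome 6, 88177798 to 88243718) had 1047, 1036 and 903 in the control and 237, 247 and 226 with the NO donor. It was 4.18-fold lower (3.87 to 4.52), close to COL14A1. Among the FACIT chains of low count, COL21A1 had 43 counts in the control and 6 with the NO donor, 10.6-fold lower (4.48 to 30.4). COL9A2 of the cartilage-associated type IX had 19 and 7 counts, 4.01-fold lower (1.61 to 11.3), and its partner COL9A3 had 8 and 7, with a log2 ratio of −0.75 whose interval, −2.45 to 0.90, holds 0.

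Type VI chains were moderately lower at the authors' scaling. COL6A2 (at 595471 to 630235 of an unplaced sequence of the build) had 6165, 6096 and 6106 in the control and 2441, 2414 and 2408 with the NO donor, 2.53-fold lower (2.46 to 2.59). COL6A3, the longest chain of the usual type VI trimer (chromosome 15, 137011549 to 137103687), had 2329.9, 2465 and 2284 in the control and 986, 1071 and 1014 with the NO donor, 2.30-fold lower (2.21 to 2.40). Neither chain had overlapping columns. Scaled by total counts, COL6A2 lay at −0.74 and COL6A3 at −0.61, and neither passed the rule. COL6A1, the third chain of that trimer, was not analysed here.

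All 5 chains outside these classes were lower by the rule at either scaling. The multiplexins COL15A1 and COL18A1 link basement membranes to the matrix beneath and carry large sugar chains. COL15A1 (chromosome 1, 240718128 to 240829188) had 3156, 3025 and 2995 in the control and 252, 287 and 256 with the NO donor, 11.5-fold lower (10.8 to 12.3). COL18A1, the source of endostatin (chromosome 13, 207907835 to 207984082), had 1569, 1393 and 1408 in the control and 486, 471 and 448 with the NO donor, 3.10-fold lower (2.92 to 3.28). Columns did not overlap for either, and COL15A1 lay 1.89 log2 units further below the control than COL18A1. COL7A1, of anchoring fibrils, had 22 counts in the control and 9 with the NO donor, and its columns overlapped. COL17A1, a transmembrane chain of epithelia, had 7 counts and 1, a ratio of 10.3 with an interval of 1.33 to 466. COL26A1 had 15 and 2, a log2 ratio of −3.47 with an interval of −6.64 to −1.36.

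Shares of all counts in a library amount to total count scaling, under which the median gene lay 0.60 log2 units higher with the NO donor. Collagen chains took 1.57% of all control counts (1.56 to 1.57) and 0.419% of the NO donor counts (0.416 to 0.421). The share of type I alone was 1.02% in the control and 0.175% with the NO donor. Network chains took 0.0467% (0.0458 to 0.0476) in the control and 0.0549% (0.0539 to 0.0559) with the NO donor. Shares within the collagen counts need no scaling between libraries. There the fibrillar class made up 85.4% in the control and 63.5% with the NO donor. Over the same counts the network class went from 2.98% to 13.1%, the microfibrillar class from 6.19% to 14.2% and the FACIT class from 2.17% to 6.15%. The other chains stayed near 3%, at 3.30% and 3.04%. Such shares add up to a whole, so a class can gain share while its chains are lower. At the authors' scaling the network, microfibrillar and FACIT medians were −0.49, −1.27 and −2.03. COL12A1 alone held 3798 of 5478 FACIT counts with the NO donor and 2542 of 7402 in the control. The class shares of the columns did not overlap between libraries for any of the 5 classes. Those shares are tied to each other, and columns wholly apart were common, at 36.3% of all genes below the control and 36.7% above. The fibrillar share ran from 85.2% to 85.5% in the control columns and from 62.8% to 63.8% in the NO donor columns.

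**Figure D3:**
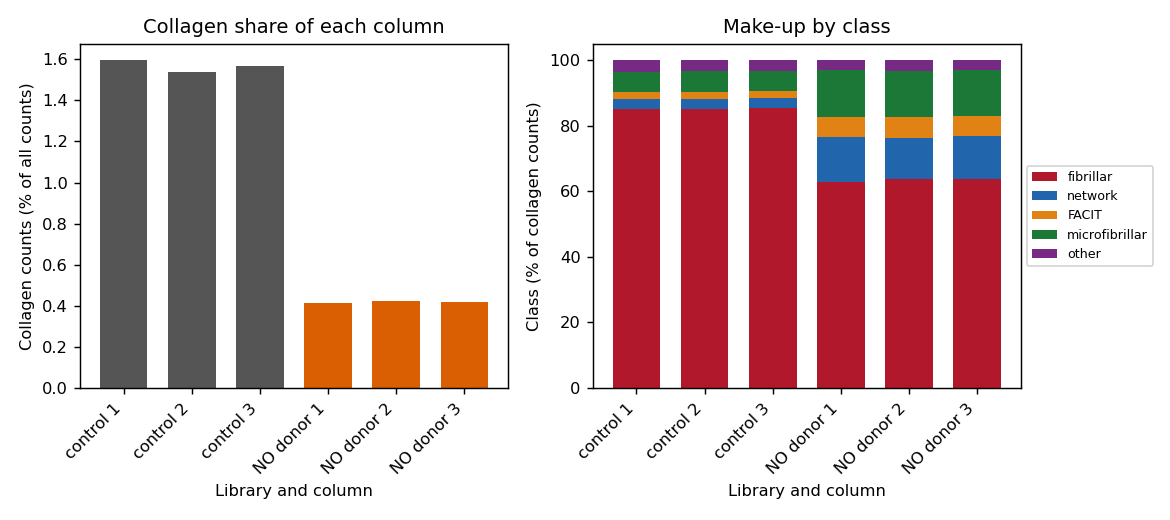
Left, collagen counts as a percentage of all counts in each of the 3 columns of each library; right, the make-up of those collagen counts by class. Collagen took between 1.54% and 1.59% of the control columns and between 0.416% and 0.421% of the NO donor columns, and the network and microfibrillar parts are larger with the NO donor.

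Chains that share a trimer were compared within each library, as the share of 1 chain in the summed counts of its set. Such a share depends on how well each transcript is captured, so it is compared between libraries and not read as the make-up of the protein. COL1A1 gave 40.3% (40.1 to 40.5) of type I counts in the control and 17.6% (17.3 to 18.0) with the NO donor. The share ran from 40.2% to 40.5% over the control columns and from 17.5% to 17.8% over the NO donor columns. COL5A1 gave 11.0% (10.5 to 11.5) of the counts of COL5A1 and COL5A2 in the control and 7.37% (6.80 to 7.96) with the NO donor. For type IV the COL4A1 share was 79.3% (78.2 to 80.3) and 77.4% (76.5 to 78.4), intervals that overlap. COL6A3 gave 27.8% (27.2 to 28.4) of the counts of COL6A2 and COL6A3 in the control and 29.7% (28.9 to 30.5) with the NO donor, and the column values of the libraries overlapped.

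Fibrillar types were set against each other in the same way. COL5A2 gave 9.06% (8.91 to 9.21) of the summed counts of COL5A2 and COL1A2 in the control and 19.4% (19.0 to 19.8) with the NO donor. COL3A1 gave 29.1% (28.9 to 29.3) of the summed counts of COL3A1 and COL1A2 in the control and 26.9% (26.4 to 27.3) with the NO donor. Against both type I chains together, COL3A1 gave 19.7% (19.5 to 19.8) and 23.2% (22.8 to 23.6). The direction of the type III to type I comparison therefore turned on whether COL1A1 was counted.

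**Figure D4:**
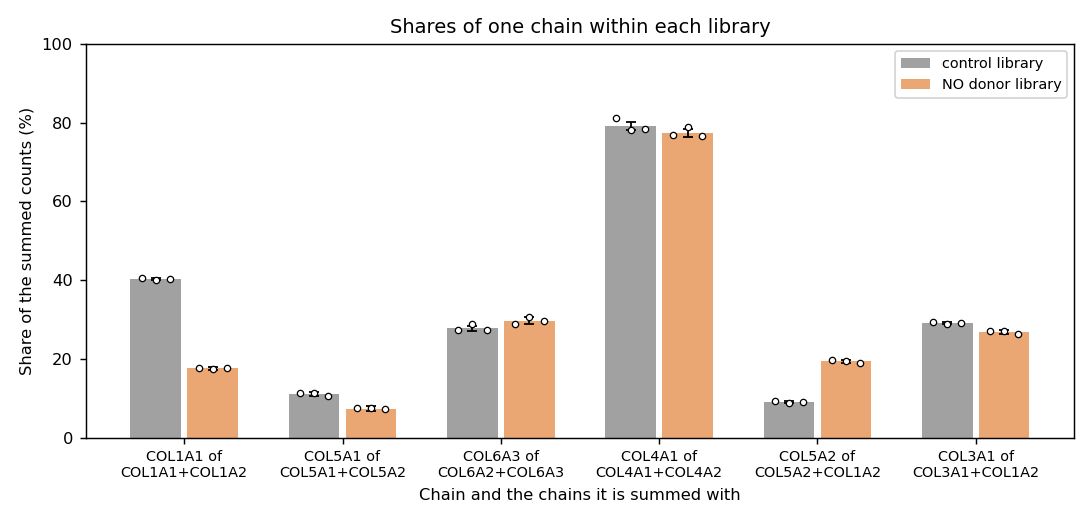
Share of 1 chain in the summed counts of the chains named below each pair of bars, for the control and NO donor libraries, with 95% counting intervals and open points for the 3 columns. The COL1A1 share is 40.3% in the control and 17.6% with the NO donor, whereas the COL4A1 shares of 79.3% and 77.4% have overlapping intervals.

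The classes also differed in gene structure. The rule for the rows did not use it, but the classes are set partly by the form of the helix. Differences between classes in the helix are thus background and no separate result. In the longest coding model of each gene, fibrillar chains had 21 to 33 coding exons of exactly 54 bases, FACIT chains 4 to 14, microfibrillar chains 2 and 3, network chains 0 to 3 and the other chains 0 to 6. The longest run of glycine triplets without a break was 178 to 343 triplets in fibrillar chains and 39 to 66 in network chains, whose helices are interrupted. COL8A1 has only 2 coding exons, none of 54 bases. Among fibrillar chains COL1A1, with 21 such exons, had a log2 ratio of −4.33. COL1A2, COL3A1 and COL5A2, with 24 each, had −2.67, −2.83 and −1.40, and COL5A1, with 28, had −2.03. COL11A1, with 30, and COL5A3, with 31, had −4.02 and −3.50 from few counts. COL24A1 and COL27A1, with 33 each, had −1.79 and −0.71. Whether the ratio goes with the number of such exons was not tested. COL12A1 and COL14A1 both have 4 exons of this length and a longest run of 32 triplets, and lay 2.14 log2 units apart.

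**Figure D5:**
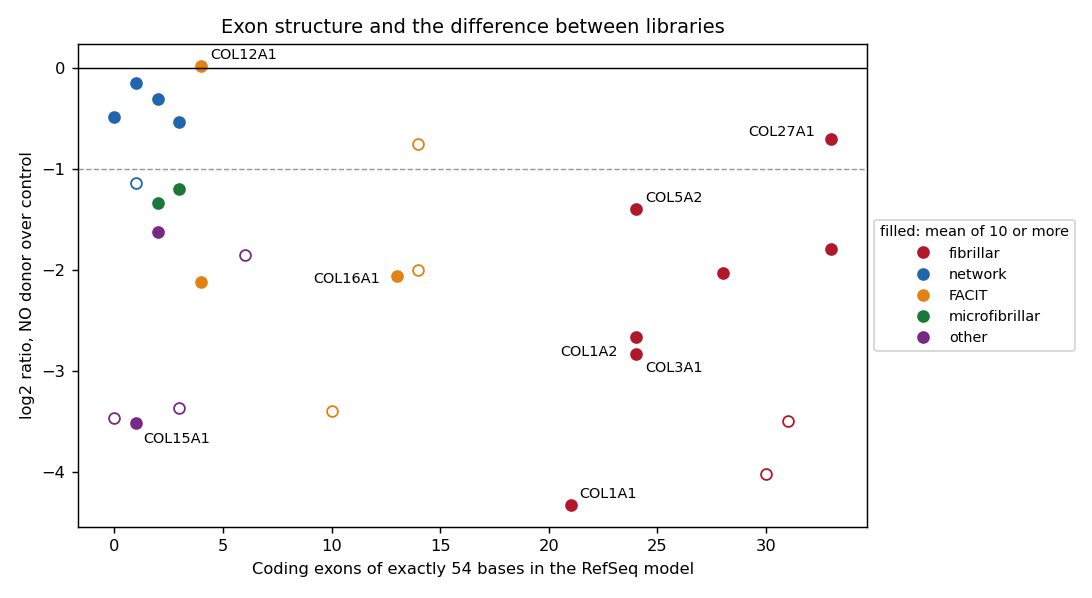
Number of coding exons of exactly 54 bases in the RefSeq model against the log2 ratio of NO donor over control at the authors' scaling, 1 point per chain, coloured by class and filled where the mean is 10 or more. Fibrillar chains lie at 21 to 33 exons and spread from −4.33 to −0.71, while COL15A1, with 1 exon, lies at −3.52.

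The other genes of collagen production are given list by list, beside 20.2% of all genes lower by the rule and 14.5% higher. Of 13 enzymes that hydroxylate collagen or add sugars to it, 2 were lower by the rule, 1 was higher and 10 lay within it, with a median log2 ratio of −0.25. P3H3 and CRTAP, which act in prolyl 3-hydroxylation, had log2 ratios of −1.62 and −1.53, and the prolyl 3-hydroxylase P3H2 had 2.52 from 9 control counts and 76 with the NO donor. PLOD2, a lysyl hydroxylase, had −0.71, and P4HA1, a catalytic subunit of prolyl 4-hydroxylase, had −0.23. Among 13 chaperones and export factors 6 passed on the lower side and 1 on the higher, and the median was −0.39. SEC24D and SEC23A, coat proteins of export vesicles, had −1.85 and −1.61, FKBP14, a prolyl isomerase, −1.44, and SERPINH1, the collagen chaperone HSP47, −1.24, while HSPA5, the general chaperone BiP, had 1.63. Propeptide cleavage had 4 of 8 genes lower, 1 higher and a median of −0.75, and PCOLCE, an enhancer of that step, had −3.86 from 69 control counts and 7 with the NO donor. PCOLCE2, its relative, had −1.40, the N-propeptidase ADAMTS2 −1.46 and the tolloid-like protease TLL2 1.65. Lysyl oxidases, which crosslink fibrils, were lower in 4 of 5, with a median of −1.67, namely LOXL1 at −2.24, LOXL2 at −1.80, LOX at −1.67 and LOXL4 at −1.61. Scaled by total counts, these 4 still passed the rule. The same scaling gave 1 lower and 3 higher in the hydroxylation list, 2 lower and 3 higher in the export list, and 1 lower and 1 higher in the propeptide list. Of all genes, 11.9% were lower and 33.2% higher under that scaling.

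Genes that bind or break down collagen went both ways. Among 8 collagen receptors 3 passed the rule on the lower side and 1 on the higher side, and the median was −0.26. Scaled by total counts, 0 were lower and 2 higher, against 11.9% and 33.2% of all genes. MRC2, an uptake receptor for collagen fragments, had −1.35. Of the subunits of collagen-binding integrins, ITGA11, ITGB1 and ITGA10 had −1.29, −1.08 and −0.79, ITGA1 had 0.51, and ITGA2 had 3.17 from 4 control counts and 53 with the NO donor. Also above 0, DDR2, a receptor kinase for fibrillar collagen, had 0.28. Among 8 proteases the rule was passed by 2 on the lower side and by 2 on the higher, near the shares of all genes, and the median was −0.43. MMP9, 1 of the higher pair, had 0 control counts and 13 with the NO donor. It was 2.94-fold higher with the control library set to the floor of 3 counts, and its counting interval starts at 2.07-fold. MMP13, 1 of the lower pair, had 5 control counts and 3 with the NO donor. MMP1, the interstitial collagenase, stood at 83.4, 83.8 and 88.6 in the control columns and at 985, 1387 and 1339 with the NO donor, 14.5-fold higher (12.6 to 16.7). The chi-square of its 3 NO donor counts over the degrees of freedom was 47.9, so that interval is too narrow. MMP2 had −0.36, MMP14 −0.51 and CTSK, cathepsin K, 0.13, while FAP, a fibroblast surface protease, had −1.89 and the prolyl peptidase PREP −0.89. Under total count scaling MMP2 and MMP14 turned positive, at 0.24 and 0.09, as did the medians of the hydroxylase, export, receptor and protease lists, at 0.34, 0.20, 0.34 and 0.16. All of these values lay below the median gene, which was at 0.60 under that scaling.

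Markers of the labelled cell type were detected in both libraries and were mostly lower with the NO donor, as the fibrillar chains were. All 10 valve interstitial markers had values, and 8 were lower by the rule, or 5 when scaled by total counts. The 2 within the rule at the authors' scaling were PDGFRB at 0.04, whose columns overlapped, and DDR2 at 0.28. Of all genes, 20.2% were lower at the authors' scaling and 11.9% at total counts. VIM, which had −1.51 and −0.92 at these scalings, made up most of the sum of the 10 markers. That summed normalized count was 98666 to 104701 over the control columns and 31215 to 33561 over the NO donor columns. All 6 smooth muscle or myofibroblast markers were lower, summed to 85570.2 to 95303 in the control and to 2299 to 2900.4 with the NO donor. DES was at 0 counts in the NO donor library, and its control columns held 499, 103 and 210. The chi-square of the 3 control counts over the degrees of freedom was 125 for DES and 152 for ACTA2, far beyond counting error. Of 10 endothelial markers 4 had values, PECAM1, ERG, EMCN and EGFL7, summed to 745 to 831 in the control and 422 to 450.3 with the NO donor, though EGFL7 had a log2 ratio of 0.77; CDH5, VWF and KDR were not analysed here. Of 8 leukocyte markers 3 had values, summed to 165 to 174 and 152 to 164, almost all of it CD14. Of 7 chondrocyte markers 3 had values, summed to 357 to 404 and 181 to 192, most of it SOX9 at −1.34, while HAPLN1 and MATN3 had 0.59 and 1.66. The part of any of these in the collagen values was not tested.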

How the data were processed

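The values came from the authors' deposited DESeq2 table of the NO donor against the control. Per the submitters' processing notes, Cell Ranger, Seurat 3.0, DESeq2 and the build Sscrofa11.1 were used, with no role given for each. Per the file headers, 6 columns and their mean hold a signal, counts per gene over 1 size factor per column, set by the authors. Whole counts were recovered from 100% of values (tolerance 0.01 of a count), and libraries summed to 21807024 counts (control) and 21289316 (NO donor). The authors' deposited log2 fold change, its error, the Wald score and the p-value, raw and adjusted, rest on those 6 columns, and the labels do not say whether they are separate cultures.

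Counts of the 3 columns were summed per library and divided by the summed size factors, and the log2 ratio is NO donor over control, with no pseudocount. A library at 0 was set to 3 counts. Ratios and shares have exact binomial (Clopper-Pearson) 95% intervals. Counting intervals are too narrow where columns spread more than Poisson counts: over the 18 chains with a mean of 10 or more, the chi-square of the 3 counts over its degrees of freedom had a median of 1.37 with the NO donor and 2.11 without, and reached 8.78 for COL12A1 and 11.0 for COL4A1. Full values are given for chains with a mean of 10 or more, up to 4 per class by size of ratio and every chain of a type with at least 2 such chains; the others are given by counts. COL24A1, COL27A1 and the chains of low count were added so that every row is accounted for. Of each other list, up to 4 members by size were to be named; P4HA1, SERPINH1, DDR2, ITGA1, ITGA2, MMP2, MMP9, MMP13, CTSK and single cell type markers were named beyond it, after their values were seen. The chains, classes and lists were chosen with earlier results of these data known.

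Coordinates, exons and coding models are from the RefSeq annotation of Sscrofa11.1, 1-based, matched by symbol for all 27 chains; the longest coding model was used, and that of COL6A3 holds 1 in-frame stop in the genome. Scaling alternatives used total counts and TMM of edgeR 4.0.16. The code was checked on simulated data. Python 3.11.15, SciPy 1.17.1 and pandas 2.3.3 were used.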

Additional observations from a re-analysis of the deposited data

How the results depend on the processing

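No paired analysis was possible because the labels give 1 library per group and the treatment was not tested. The 16 chains named by the rule, the medians and the counts were recomputed with total counts, TMM scaling, the authors' log2 fold change, every row with a count, a mean of 10 or more, a threshold of 0.5 and the mean over chains, where each applies, and with each column left out. Of the values for single chains 125 moved by less than their interval and 19 by more. Total count scaling moved all 16 chains by more, and the few other such moves were of COL1A2 and COL4A1. Among counts, medians and chain shares the numbers were 108 and 12. There the median of all chains, from −1.85 to −1.25 under total counts, was sorted as unmoved. The fibrillar median, from −2.67 to −2.65 under TMM, was sorted as moved, so this tally does not measure the size of a shift. Scaled by total counts, the fibrillar median was −2.08, the microfibrillar median −0.67 and the network median 0.11, the last with a changed sign. TMM gave a fibrillar median of −2.65. Over chains with a mean of 10 or more, 12 chains were lower in place of 20, since 9 chains leave the comparison, and the fibrillar and network medians were −2.03 and −0.40. The mean over fibrillar chains was −2.59. Leaving out 1 column at a time gave 19 to 21 lower chains and 0 higher ones, fibrillar medians of −2.68 to −2.01, network medians of −0.51 to −0.36 and medians of the other chains of −3.40 to −2.72. Low counts limit the 9 chains with a mean under 10, whose ratios are known only within their intervals.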
